A study of Mus musculus with 18 samples.

Results

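The comparison set oocytes of primary follicles against oocytes of primordial follicles within the NTY group of a mouse ovary study. It took 6 of the 18 libraries in the series, 3 for each follicle stage, chosen by their library codes and stage labels, and all genes were compared. The study sequenced RNA of ovarian follicles with and without NTY, a treatment label that the labels do not spell out. All 6 libraries came from mice of a C57Bl/6j x CBA/J cross, were described as in vivo, and carried the label NTY. The agent, dose, duration, the age of the mice and the number of animals were not given in the sources used here. Cells were cut out of tissue with a laser, and RNA of several caps was combined within each stage, so that 1 library stood for a pool and not for 1 follicle. The RNA was amplified and enriched for transcripts with a capture kit before sequencing. Matching primordial and primary libraries labelled sham, 3 of each and of the same cross, were compared beside them.

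A primordial follicle holds a resting oocyte inside a single layer of flat pregranulosa cells, and most oocytes stay in this reserve for long periods. When the follicle is activated, KIT and PI3K signalling in the oocyte moves the transcription factor FOXO3 out of the nucleus, the granulosa cells become cuboidal and begin to divide, and the oocyte starts to grow. The growing oocyte lays down the zona pellucida, secretes GDF9 and BMP15, and stores maternal proteins and RNAs that the early embryo will use.

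The 6 libraries held 22679770 to 27012288 counts, and 3 counts corresponded to 0.107 to 0.181 CPM (counts scaled to library size by the trimmed mean of M values). The libraries differed widely within a stage. Genes with at least 1 count numbered 10493, 12461 and 6524 in primordial replicates 1, 2 and 3, and 10255, 7474 and 9611 in primary replicates 1, 2 and 3. The means were 9113 ± 1456 in primary and 9826 ± 3024 in primordial oocytes (SD, n = 3), a difference of -713 genes (two-sided exact permutation p = 0.8, where 3 against 3 libraries cannot go below 0.1). Primordial replicate 3 stood apart. It had the fewest genes, and Actb, the beta actin gene, took 4.80% of its counts. Without it the difference was -2364 genes (exact permutation p = 0.2). Across the 10522 genes tested, rank correlations of log CPM between libraries of different stages ran from 0.372 to 0.530 over 9 pairs. Within primary oocytes they ran from 0.394 to 0.428, and within primordial oocytes from 0.444 to 0.587. The ranges within and between stages overlapped.

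Each gene was also placed by the number of libraries of each stage in which it had at least 10 counts. Of the 10522 tested genes, 1879 (17.9%) reached 10 counts in all 6 libraries. Genes reached in all 3 primary and in no primordial library numbered 40 (0.380%), and genes reached in all 3 primordial and in no primary library numbered 93 (0.884%).

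**Figure D1:**
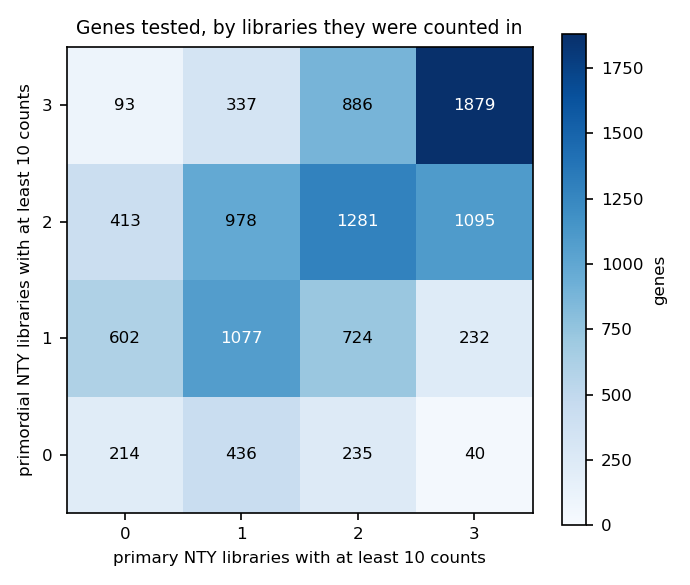
Number of tested genes by how many of the 3 primordial and how many of the 3 primary NTY libraries held at least 10 counts. The cell for all 6 libraries holds 1879 genes, and the cells for 1 stage alone hold 40 (primary) and 93 (primordial).

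No gene passed the test. In edgeR's quasi-likelihood test of primary against primordial oocytes, 0 of 10522 genes (percent called 0) had a Benjamini-Hochberg adjusted p under 0.05, and the smallest adjusted p was 0.439. At an unadjusted p under 0.05 there were 1049 genes (9.97%), 367 in primary oocytes (3.49%) and 682 lower (6.48%). The common dispersion was 3.59, a very wide spread between libraries of one stage. DESeq2 without its filter on Cook distances called 1143 genes (10.9%), 416 higher (3.95%) and 727 lower (6.91%). Of the 416 higher genes, 267 (64.2%) had over 90% of their primary level in 1 library, and 95 (22.8%) had groups that did not overlap. Of the 727 lower genes, 418 (57.5%) had over 90% of their primordial level in 1 library, and 241 (33.1%) had groups that did not overlap. With the Cook filter DESeq2 called 706 genes (6.71%), 259 higher (2.46%) and 447 lower (4.25%). Of these 259, 123 (47.5%) had over 90% of their primary level in 1 library, and 72 (27.8%) did not overlap. Of these 447, 195 (43.6%) had over 90% of their primordial level in 1 library, and 168 (37.6%) did not overlap. The share of all tested genes with over 90% of a stage's level in 1 library is not given here. The shares on that measure thus cannot be set against all genes. limma voom with sample quality weights called 2 (0.019%), Card19 as higher and Stat5b as lower (0.0095% in each direction). Over all tested genes, CPM did not overlap between the stages in 825 (7.84%), 340 higher in primary (3.23%) and 485 lower (4.61%). In sham it did not overlap in 14.2%. All folds below are primary over primordial on the log2 scale, and their adjusted p-values are from edgeR over all 10522 genes.

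Of the 1879 genes that reached 10 counts throughout, 93 were higher (4.95%) and 103 lower (5.48%) in primary oocytes without overlap. Over all tested genes the shares were 3.23% and 4.61%. With 3 against 3 libraries, full separation in either direction has a two-sided exact permutation p of 0.1. Shares of this size are thus no result about these genes. Genes among the 10 of smallest unadjusted p in each direction are described here, and their lack of overlap was part of the choice. Mllt3 led the higher ones. MLLT3 reads acylated histones and is a partner of the elongation machinery. Its level was 159, 12.1 and 0.904 CPM in primordial replicates 1 to 3 and 1322, 5637 and 182 CPM in primary replicates 1 to 3. Every primary library was above every primordial one, although the primary libraries themselves were far apart. The log2 fold change was 5.37 ± 1.82 (SE, adjusted p = 0.439). Mllt3 lies on chromosome 4 from 87769925 to 88033364 (mm10, GENCODE M21 gene model).

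Chd8, which encodes a chromatin remodeller, stood at 119, 311 and 29.1 CPM in primordial and at 673, 2518 and 1446 CPM in primary libraries. Its fold was 3.34 ± 1.38 (adjusted p = 0.439), and its lowest primary value was above its highest primordial value. Wnk1, a kinase of ion transport, stood at 101, 868 and 20.9 CPM against 2206, 2995 and 997 CPM, with a fold of 2.65 ± 1.29 (adjusted p = 0.496).

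Hsf1, the master transcription factor of the heat shock response, had 61.5, 29.7 and 60.6 CPM in primordial and 275, 941 and 287 CPM in primary oocytes. The 3 primordial values of Hsf1 lay close together and all below the primary ones, with a fold of 3.31 ± 1.88 (adjusted p = 0.577). Txnip, an inhibitor of thioredoxin, had 179, 239 and 1.27 CPM against 527, 1623 and 535 CPM and a fold of 2.68 ± 1.59 (adjusted p = 0.599).

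Further higher genes of this kind were Abi3bp, Epb41l2, Dcbld2 (which overlaps St3gal6) and Mia2, with folds from 3.68 to 7.47 and adjusted p from 0.439 to 0.583. For Abi3bp, 99.3% of the primary level was in replicate 2.

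The 10 lower genes were led by Zfp644, which encodes a zinc finger protein. It had 1476, 231 and 4446 CPM in primordial and 20.5, 62.1 and 20.3 CPM in primary libraries. The 3 primary values lay close together, below all primordial ones, and the fold was -5.90 ± 1.63 (adjusted p = 0.439). Zfp644 lies on chromosome 5 from 106616739 to 106697287 (mm10).

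Eif3a, the largest subunit of translation initiation factor 3, had 1111, 344 and 5895 CPM against 167, 35.9 and 165 CPM, a fold of -4.32 ± 1.42 (adjusted p = 0.439). Rc3h2, which encodes an RNA-binding roquin protein that promotes mRNA decay, had 335, 671 and 384 CPM against 1.25, 8.66 and 7.49 CPM, and its fold was -6.32 ± 2.39 (adjusted p = 0.439). The primordial values of Rc3h2 were within a narrow band for these data. Psmd3, a subunit of the 26S proteasome, had 267, 294 and 1686 CPM against 65.0, 4.53 and 50.3 CPM, with a fold of -4.23 ± 1.88 (adjusted p = 0.453). Snd1, a component of RNA-induced silencing complexes, had 591, 484 and 4229 CPM against 357, 96.2 and 330 CPM, with a fold of -2.76 ± 1.33 (adjusted p = 0.487). Snd1 overlaps Lrrc4, so that reads may be shared. In Psmd3 and Snd1 the highest level by far was that of primordial replicate 3. The remaining 5, Synpo, Cdk11b, Mast4, Ptprg and Gatm, had folds from -5.15 to -3.05.

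**Figure D2:**
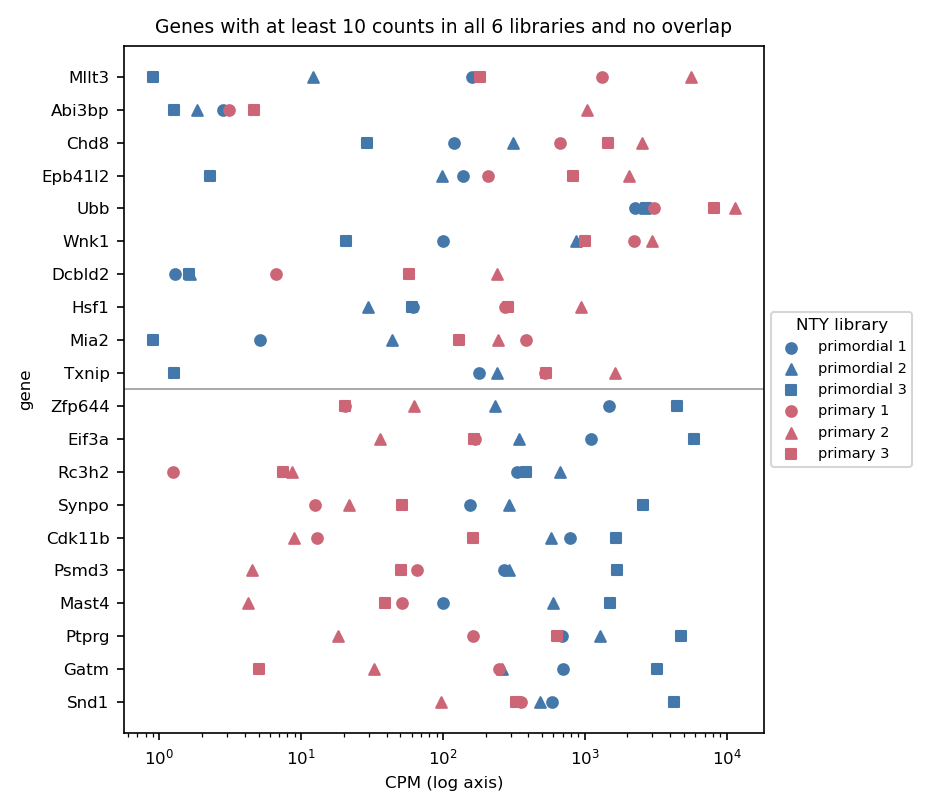
CPM per library, on a log axis, of the 10 genes higher (upper) and the 10 genes lower (lower) in primary oocytes with at least 10 counts in all 6 libraries and no overlap, primordial in blue and primary in red. Each gene's colours stay apart, while values of 1 stage can differ by more than 100-fold, as for Mllt3 between 0.904 and 159 CPM in primordial libraries.

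A second choice of 10 genes in each direction took the smallest unadjusted p without the demand for counts in every library, and most of these genes were absent or nearly absent in 1 stage. No fold is given for them, since it would rest on the prior count. Card19, which encodes a CARD domain protein, had 0 counts in all 3 primordial libraries and 2652, 5455 and 527 in the primary ones. It had an adjusted p of 0.439 in edgeR and of 0.0276 in limma voom, and lies on chromosome 13. Mef2c, a transcription factor gene of the MADS box family, had 30, 0 and 3 counts in primordial and 1318, 14029 and 9131 in primary libraries. Mycbp, a partner of MYC, had 0 counts in each primordial library and 34, 3083 and 1371 in the primary ones. In H2bu2, a histone gene that may share reads with near-identical copies, 93.5% of the primary level was in replicate 2 alone. Meis2, Rsc1a1 (which lies inside Ddi2), Afg1l, Zkscan7 and Gm14292 also had their counts mostly in 1 or 2 primary libraries.

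Among the lower genes of this choice, Rcor3, a corepressor of the REST complex, had 9234, 247 and 11931 counts in primordial and 2, 1 and 0 in primary libraries. Slc22a5, the carnitine transporter of the plasma membrane, had 1330, 1402 and 22922 counts against 0, 0 and 2. Drp2, a dystrophin-related gene, had 370, 2246 and 25641 counts against 0 in each primary library. In Ppm1k, Taf11 and Ercc2 nearly all primordial counts were in replicate 3. Taf11 had 11, 9 and 30807 counts against 3, 0 and 0, and the general transcription factor gene Taf10 had 13837, 4469 and 3 against 3, 1 and 3. Taf10, Taf11 and Ercc2 overlap other genes, so that reads may be shared. The same holds for Mycbp, Zkscan7, Rcor3 and Ppm1k. Among the genes with counts in every library it also holds for Zfp644, Chd8, Txnip, Psmd3, Cdk11b, Mast4 and Ptprg.

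Genes with at least 100 counts in all 3 libraries of one stage and at most 3 in all libraries of the other were counted next. Card19 was the 1 gene (0.0095%) present in primary and missing in primordial oocytes, and 15 genes (0.143%) had the opposite pattern. In the sham libraries the same rule found 89 genes present in primary and 0 present in primordial oocytes. Sham libraries had 6147, 9229 and 9852 genes with at least 1 count in primordial and 12955, 10565 and 13755 in primary replicates 1 to 3. The part of this difference in the 89 and 0 was not tested. Stat5b, a signal transducer downstream of cytokine and hormone receptors, had 6324, 3943 and 9956 counts in primordial and 0, 0 and 2 in primary libraries. Its adjusted p was 0.439 in edgeR and 0.0276 in limma voom. Further genes of the 15 follow. They were picked after their values were seen, so a function they share is not a result. Dpy19l1, Slc24a4, Xxylt1, Rnf19a, Abca4 and Gm24574 were also among the 15. Spg7, a subunit of the mitochondrial AAA protease, had 1343, 1387 and 208 counts against 1, 0 and 0. Mrpl3, a protein of the mitochondrial ribosome, had 783, 307 and 571 counts against 2, 0 and 0. Slc25a20, the carrier that brings acylcarnitines into mitochondria, had 154, 399 and 732 counts against 1, 0 and 1. Pnpt1, an RNA-processing enzyme of mitochondria, had 242, 345 and 615 counts against 0, 0 and 1. Hes1, a target of NOTCH signalling, had 1047, 132 and 1036 counts against 0, 2 and 0.

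The oocyte genes were followed in 3 lists, the zona pellucida and growth factors (7 genes), the maternal store (20) and germline identity (15), together 42 genes. Mean CPM was higher in primary oocytes in 38 of the 42, lower in 2, and 2 (Gdf3 and Stra8) had 0 counts in all 6 libraries. The 37 that passed the filter on low counts had a fold above 0 in 36 (97.3%) and a median of 1.60, against 51.5% above 0 and a median of 0.08 over all tested genes. No adjusted p in the lists was under 0.05, and the smallest was 0.439. Primordial replicate 3 was lowest or tied for lowest in 34 of the 37, and without it 33 of 39 tested genes (84.6%) had a fold above 0, with a median of 1.17, against 51.5% and 0.10 over all genes. The median was 0.85 without primary replicate 3 and 3.53 without primordial replicate 2. The summed level of the 42 genes was 941, 1866 and 43.5 CPM in primordial and 1196, 5077 and 4458 CPM in primary libraries. Primary replicate 1 lay below primordial replicate 2, so the sums overlapped. In bulk pools of cut-out cells, fewer oocytes in a pool and less oocyte RNA per cell cannot be told apart.

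**Figure D3:**
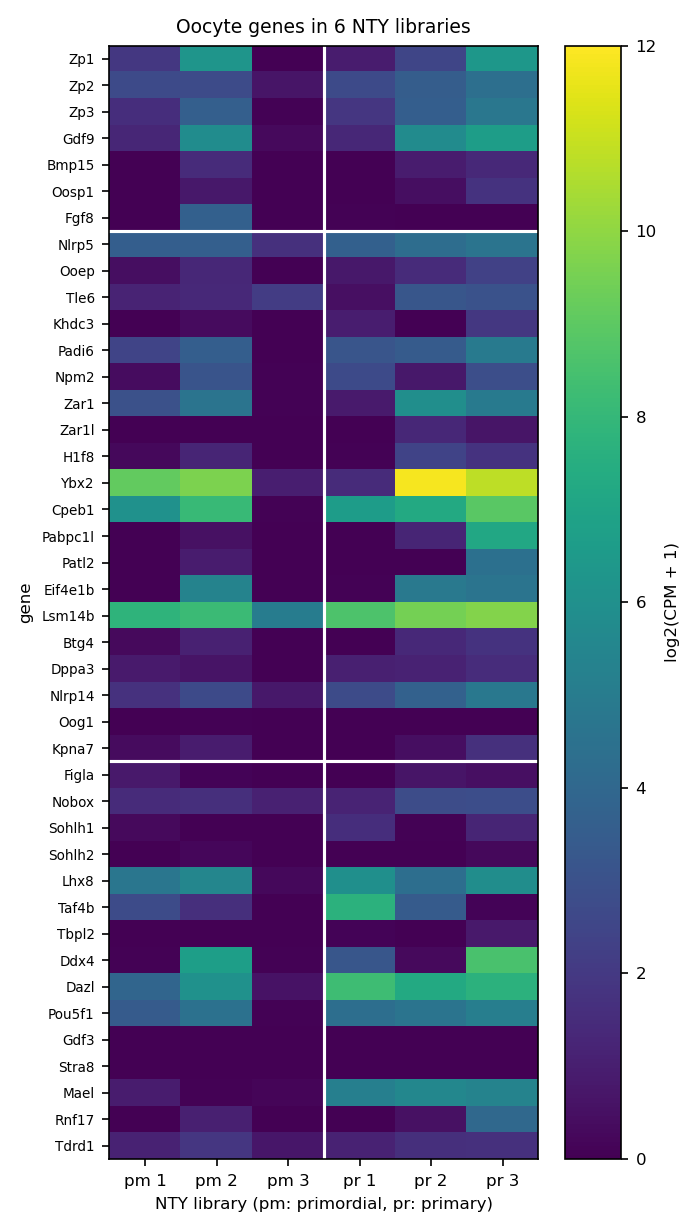
Levels, as log2(CPM + 1), of the 42 oocyte genes (rows) in the 6 NTY libraries (columns). Primordial replicate 3 is the emptiest column, with a sum of 43.5 CPM, while Mael is near 0 in all primordial and at 34.9 to 46.7 CPM in all primary libraries.

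The germline gene Mael, whose protein acts with piRNAs against transposons, had 20, 1 and 2 counts in primordial and 779, 825 and 982 in primary libraries, or 0.887, 0.0356 and 0.121 against 34.9, 46.7 and 40.4 CPM. The primary values lay within a narrow band and far above all primordial ones, and the fold was 6.85 ± 3.37 (unadjusted p = 0.0481, adjusted p = 0.499, both edgeR). Dazl, an RNA-binding protein needed for germ cells, had 14.2, 66.8 and 0.482 CPM against 312, 154 and 212 CPM, again without overlap (fold 3.06 ± 2.40, adjusted p = 0.735).

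Of the 19 genes of the maternal store that passed the filter, 4 were higher in primary oocytes without overlap, where 3.23% of all tested genes were. Lsm14b, which encodes a protein of oocyte RNA granules, had 5102, 8247 and 537 counts in primordial and 8928, 12771 and 20933 in primary libraries. Nlrp5, a gene of the subcortical maternal complex, had 245, 324 and 36 counts against 267, 327 and 573. The counts of Nlrp5 overlapped and the stages were apart only after scaling, and its fold was 1.14 ± 2.72 (adjusted p = 0.951). Nlrp14 had 51, 155 and 12 counts against 125, 215 and 650, which were likewise apart only after scaling (5.60 CPM in primary replicate 1 against 5.52 CPM in primordial replicate 2). Dppa3, which protects maternal methylation in the zygote, had low counts throughout, 18, 15 and 0 against 24, 22 and 45.

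Genes of the zona pellucida and the secreted growth factors overlapped between stages. Gdf9 had 32, 1564 and 4 counts in primordial and 34, 974 and 2479 in primary libraries. Zp3, a sperm-binding glycoprotein of the zona, had 44, 315 and 1 counts against 61, 191 and 643. Bmp15 had 0, 49 and 0 counts against 0, 16 and 39. For these 3 genes the primordial replicate 2 and primary replicate 3 libraries held most counts, and primary replicate 1 was near primordial replicate 1. Ddx4, the germ cell RNA helicase also known as VASA, had 1, 2970 and 1 counts in primordial and 183, 4 and 9137 in primary libraries, and Ybx2, an RNA-binding protein of stored mRNA, had 12372, 22168 and 17 against 39, 65345 and 43789. Each stage thus had libraries in which Ddx4 was almost missing. Without Ybx2 and Lsm14b the summed oocyte level was 166, 783 and 10.1 CPM in primordial and 794, 654 and 1794 CPM in primary libraries.

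Of 17 genes of meiotic prophase, 7 passed the filter and 5 of these had a fold above 0. Hormad1, Hormad2, Dmc1 and Spo11 had 0 counts in all 6 libraries. Smc1b, a cohesin subunit of meiosis, had 1, 197 and 16 counts in primordial and 2, 3003 and 4120 in primary libraries, and Stag3, another meiotic cohesin subunit, had 0 in each primordial library and 0, 268 and 647 in the primary ones. Primary replicate 1 lacked both.

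All 26 members of the KIT, PI3K, mTOR and FOXO3 list passed the filter. Of them 11 had a fold above 0, with a median of -0.32 (-0.18 with genes at 0 in a stage set to their bound), and 0 had an unadjusted p under 0.05. Foxo3 was abundant in every library, with 553, 714 and 5681 CPM in primordial and 873, 1718 and 1107 CPM in primary oocytes, and the stages overlapped (fold -0.91 ± 1.07, adjusted p = 0.871). Kit, the receptor on the oocyte, had 4933, 2145 and 28 counts against 10734, 146 and 1677. Its ligand gene Kitl, expressed by granulosa cells, had 1654, 3137 and 0 counts against 0, 24 and 139. Stk11, the kinase LKB1 that acts upstream of AMPK, had 43.1, 17.1 and 37.8 CPM against 1.48, 2.04 and 1.19 CPM. Both stages were tight in Stk11, and its fold was -4.38 ± 2.89 (adjusted p = 0.663). Pdpk1, the kinase that activates AKT, was without overlap in the other direction, with 6.70, 59.6 and 0.0603 CPM against 74.6, 69.6 and 188 CPM. Its counts of 151, 1675 and 1 against 1665, 1229 and 4565 overlapped before scaling.

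In the TGF-beta family list, 24 of 26 members passed the filter and 15 had a fold above 0, with a median of 0.58. Inhbb and Fst, 2 of the 24, had an unadjusted edgeR p under 0.05, both lower in primary oocytes. Over all tested genes the share was 9.97%, with 6.48% lower. The CPM of both genes overlapped between the stages. Fst, which encodes follistatin, had 4814, 3825 and 0 counts in primordial and 1, 6 and 0 in primary libraries, and Inhbb, the beta B subunit of inhibin and activin, had 19, 2103 and 0 against 0 in each. Amh, the hormone that restrains recruitment of primordial follicles, had 38, 262 and 129 counts against 29, 20 and 28. Its receptor gene Amhr2 had 50, 1439 and 0 counts against 2430, 1050 and 1589, with overlap in counts but not in CPM.

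The labels called all libraries oocytes, but granulosa markers were present in each. The 17 granulosa markers summed to 2272, 4579 and 7644 CPM in primordial and 2847, 4230 and 1125 CPM in primary libraries, above the sum of the 42 oocyte genes in 4 of the 6. A few genes made nearly all of the sum in primordial replicate 3, namely Wt1 (3483 CPM), Gja1 (1666), Inha (1342) and Gata4 (1139). Foxl2 stood at 4.40 CPM in that library, and 9 of the 17 markers had 0 counts. Whether these genes stood for granulosa cells there was not tested. Cyp19a1, the aromatase of later granulosa cells, had 0 counts in all 6. Of the 15 that passed the filter, 5 had a fold above 0 and the median was -1.21, or -0.48 without primordial replicate 3. Inha, the inhibin alpha subunit, had 534, 492 and 1342 CPM against 129, 337 and 217 CPM and did not overlap (fold -1.79 ± 1.78, adjusted p = 0.827). Foxl2, the granulosa transcription factor, had 22, 10433 and 73 counts against 18125, 9483 and 1265, so that 2 primordial libraries were low. Wt1, a marker of pregranulosa cells, had 6397, 66312 and 57773 counts against 18681, 44048 and 3998. The part of granulosa RNA in the stage differences was not tested.

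Markers of other ovarian cells moved by library. The 17 stroma and theca markers summed to 5803, 2894 and 25921 CPM in primordial and 23222, 10455 and 2779 CPM in primary libraries, and the theca genes Cyp17a1, Lhcgr and Insl3 had 0 counts in all 6. Of the 12 that passed the filter 5 had a fold above 0, and the median was -0.04, or 1.36 without primordial replicate 3. Surface epithelium markers stood out in 1 library, with a sum of 713 CPM in primary replicate 1 and at most 0.412 CPM in the other 5. Krt7, a keratin of that epithelium, had 11722 counts there and at most 1 elsewhere. Endothelial markers summed to at most 13.1 CPM, immune markers to at most 38.7 CPM and red cell genes to at most 1.87 CPM. The epithelial and red cell lists had no gene past the filter on low counts. The endothelial list had 3 of 5 and the immune list 2 of 8.

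**Figure D4:**
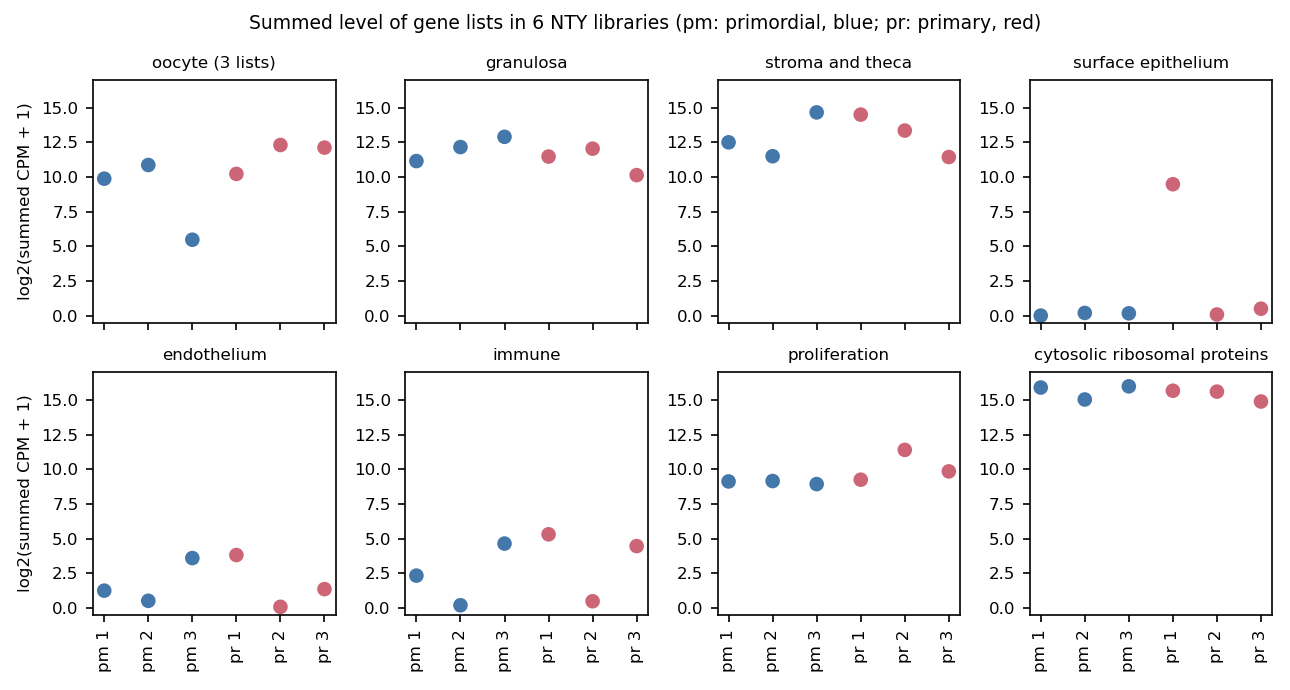
Summed level of each gene list per library, as log2(summed CPM + 1), primordial libraries in blue and primary in red. Oocyte lists are lowest in primordial replicate 3, and surface epithelium markers reach 713 CPM in primary replicate 1 alone.

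Of the 20 proliferation genes 17 had a higher mean CPM in primary oocytes, and of the 18 that passed the filter 15 had a fold above 0, against 51.5% of all tested genes. Their median was 1.86, or 1.49 without primordial replicate 3, 0.85 with voom and 0.74 on log2(TPM + 1). None had an unadjusted p under 0.05. The replicative helicase genes Mcm2, Mcm5 and Mcm6 and the mitotic kinase gene Plk1 did not overlap, all higher, where 3.23% of all tested genes were. Mcm6 had 1373, 777 and 195 counts in primordial and 2428, 4052 and 3644 in primary libraries, with a fold of 2.28 ± 2.52 (adjusted p = 0.861). Mcm7, a subunit of the same helicase, stood the other way, with 675, 1278 and 4016 counts against 110, 33 and 0 (fold -5.54 ± 3.16, adjusted p = 0.577). Mki67, the common proliferation marker, was low throughout, with 31, 126 and 41 counts against 91, 51 and 78.

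In the remaining lists no adjusted p was under 0.05. Of the 79 cytosolic ribosomal protein genes, 76 passed the filter and 27 had a fold above 0, with a median of -0.32, and their sums of 61300, 33679 and 65020 CPM in primordial overlapped those of 52210, 49921 and 30453 CPM in primary libraries. Of 20 genes of glycolysis and pyruvate use, 19 passed the filter and 11 had a fold above 0, with a median of 0.44. Of 13 mitochondrially encoded genes, 9 passed and 6 were above 0, with a median of 0.21. The NRF2 list of antioxidant genes had 16 of 18 past the filter and 9 above 0, with a median of 0.20. In that list Gclc, the catalytic subunit of glutathione synthesis, had 1774, 2287 and 41975 counts against 15, 9 and 2113, Slc7a11, the cystine transporter, had its 4252 counts almost entirely in primary replicate 3, and Nqo1 had 0 counts in all 6. The contact list of junction and adhesion genes had 9 of 10 past the filter and 7 above 0, with a median of 1.03, and Notch2, the NOTCH receptor of granulosa cells, did not overlap, with 219, 240 and 999 CPM against 5.15, 74.6 and 80.1 CPM. All 13 basement membrane genes passed, with 5 above 0 and a median of -0.25, or 0.83 without primordial replicate 3.

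The same stage step was measured in the sham libraries, which share no sample with the NTY ones. Of the 10522 genes, 5149 (48.9%) had the same sign of fold in both, and across genes, which are not independent replicates, Pearson's r was -0.04 and Spearman's rho -0.02. Among the 1349 genes with at least 10 counts in all 12 libraries the same sign was shared by 47.7%, with r of -0.07. Leaving out primordial NTY replicate 3 gave r of -0.04 over 11746 genes. Of the 10 higher genes with counts in every library plotted above, 2 had a fold above 0 in sham, and of the 10 lower ones 4 did. In the second choice, of genes mostly absent in 1 stage, 9 of the 10 higher and 6 of the 10 lower genes had a fold above 0 in sham. The share of all tested genes with a fold above 0 in sham is not given here. These counts, and those of the lists below, thus cannot be set against all genes.

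**Figure D5:**
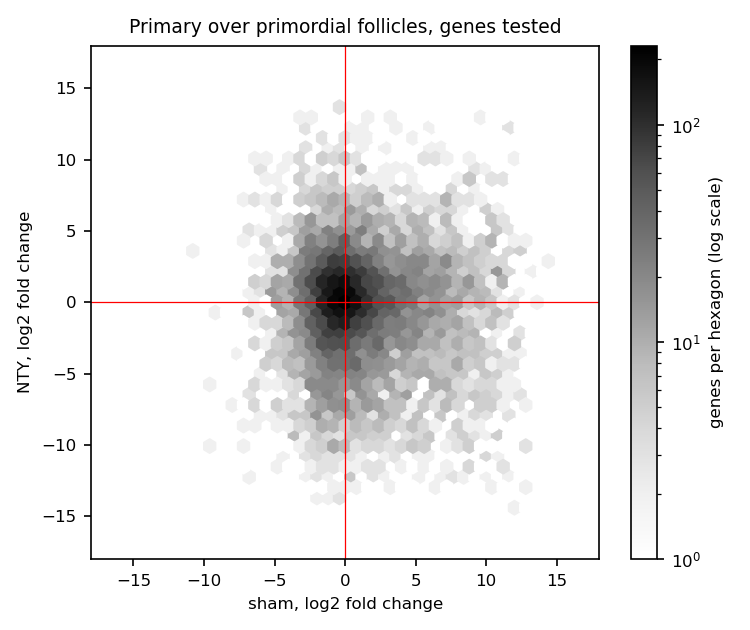
Stage fold (log2, primary over primordial) of each of the 10522 genes in NTY (vertical axis) against sham (horizontal axis), shaded by the number of genes. Pearson's r across genes is -0.04.

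The difference of the stage step between NTY and sham was tested for each gene. By edgeR 1 gene passed (0.0095%), and 1246 (11.8%) had an unadjusted p under 0.05. That gene was H2ac4, a replication-dependent histone gene with near-identical copies. It had 2, 3 and 1 counts in primordial and 3115, 15407 and 2279 in primary sham libraries, and 2031, 5597 and 115805 against 9238, 39332 and 18871 counts in NTY libraries. The difference was -12.53 on the log2 scale (adjusted p = 0.0238), and the NTY stage fold alone was -1.09 ± 1.32 (adjusted p = 0.876). Without primordial NTY replicate 3 no gene passed this test. Without primary NTY replicate 3 the 1 gene that passed had a difference above 0, where that of H2ac4 was below 0. The oocyte lists had a sham median of -0.33, with 15 of 37 folds above 0, but 0 of the 37 tested genes had an unadjusted p under 0.05 for the difference, and the smallest adjusted p was 0.449. The granulosa list had a sham median of 2.21, with 13 of 15 above 0, opposite in sign to NTY. For the difference, 3 granulosa genes had an unadjusted p under 0.05 and the smallest adjusted p was 0.276.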

How the data were processed

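Counts per gene were deposited by the authors for microdissected oocyte pools, with 3 libraries for each stage and treatment. The submitters' processing notes name Trim Galore 0.4.1, TopHat2, featureCounts and mm10, without roles, and the authors also deposited TPM values, used here only as an alternative. Counting by strand was not given in the sources used here. Of 53715 genes, 10522 passed edgeR's filterByExpr over the 12 NTY and sham libraries of these stages. They were fitted together with edgeR 4.0.16 (quasi-likelihood, TMM, robust), with a contrast for the NTY stage step and an interaction for its difference from sham, adjusted by Benjamini-Hochberg at 0.05. The SE of a fold is an approximation, the absolute log2 fold change divided by the square root of the quasi-likelihood F statistic. Symbols and mm10 positions were taken from the deposited table, a gene name table and GENCODE M21. Replicate numbers were not used to pair the libraries, since no label says that equal numbers share an animal. Labels do not say that replicates came from separate animals, so p-values measure only the spread between these samples. The library codes 2E and 2E2 of primary NTY replicates 2 and 3 may name related material. The 2 were not copies by a chi-square test.

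Named genes were the 10 in each direction with the smallest unadjusted p and no overlap of CPM, once with a mean of at least 10 CPM and once with at least 10 counts in all 6 libraries, beside genes called for the difference and 19 gene lists. The comparison, its lists and rules were chosen with earlier results of these data known, and the rule for genes present in 1 stage (at least 100 counts against at most 3) after the values were seen. Exact permutation tests were two-sided. DESeq2 1.42.0 and limma 3.58.1 (voom, and log2(TPM + 1)) were alternatives. The edgeR fit was tested on simulated data. With log2 folds of 2 and 4 planted in 200 genes, it recovered 195 and 200 at a low dispersion. At the dispersion fitted here it recovered 0 at both sizes, and larger folds were not planted. A count of 0 thus does not show that the stages were alike. Of the series, 6 libraries of other groups were not used here. Some genes among those named by the rule or held in the lists are not reported here.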

Additional observations from a re-analysis of the deposited data

Results flagged for a closer look

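The stage step of H2ac4 differed between NTY and sham (edgeR, adjusted p = 0.0238), with values given above. No gene passed this test without primordial NTY replicate 3, or with primary NTY replicates 2 and 3 summed.

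Over all tested genes, 119 had groups that did not overlap in CPM in both NTY and sham, 52 with the same sign and 67 with opposite signs. Among the named genes, the genes present in 1 stage and the 334 list genes, 9 had NTY groups that did not overlap in CPM and sham groups that did not overlap in the opposite direction. None passed the test of the difference in edgeR. By set, the sham groups were apart in the opposite direction in 2 and in the same direction in 4 of the 38 named genes, in 3 and 3 of the list genes, and in 5 and 1 of the 16 genes present in 1 stage, a set whose rule was made after the values were seen. Mrpl3 had 0 counts in all primordial sham libraries and 88, 178 and 239 in the primary ones (difference adjusted p = 0.153). Slc25a20 had 4, 1 and 19 counts in primordial and 181, 3237 and 319 in primary sham libraries (difference adjusted p = 0.170). Rnf19a, a ubiquitin ligase gene, had 591, 63 and 3 against 2402, 5146 and 1305 in sham (adjusted p = 0.153). Abca4 had 0 in each against 21, 24 and 880 (adjusted p = 0.153), and Gm24574 had 0, 2 and 0 against 1168, 2644 and 2447 (adjusted p = 0.153). The repair helicase gene Ercc2 had 0, 6 and 0 against 16, 441 and 670 (adjusted p = 0.153).

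In the gene lists, Inha had 0, 379 and 946 counts in primordial and 6712, 2041 and 18330 in primary sham libraries (difference adjusted p = 0.364). Hsd3b1, a steroid enzyme gene, had 27, 37 and 7 against 5, 5 and 6 in NTY and 0, 0 and 2 against 59, 17 and 210 in sham (adjusted p = 0.364). Mcm2 had 1482, 991 and 528 against 2132, 3322 and 4432 in NTY and 1383, 4541 and 4455 against 1494, 1713 and 2374 in sham (adjusted p = 0.820).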

How the results depend on the processing

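The count of genes called between the stages was 0 in edgeR under each other normalization, filter, sample choice and threshold, with limma on log2(TPM + 1), in each of the 6 fits that left out 1 replicate (0 to 0), and with primary replicates 2 and 3 summed. With the replicate number as a block it was 0 as well (534 unadjusted). Same-numbered libraries did not deviate together, with correlations of 0.0114, -0.0263 and -0.0459, against -0.0293 to 0.0574 for other numbers. With libraries this far apart, such values cannot show whether animals were shared. DESeq2 called 1143 without and 706 with its Cook filter, and limma voom called 2. For the difference between NTY and sham, 1 gene became 1220 and 752 with DESeq2, 23 with voom, 11 with genes of any count, 0 with 10 counts in every library and 0 with primary replicates 2 and 3 summed. It ranged from 0 (without primordial NTY replicate 3) to 8 (without primordial NTY replicate 1) over 12 fits that left out 1 replicate, and was 1 with the block. The fit of only the groups compared was not run for it, since it uses all 12 libraries. The difference in genes detected ran from -2364 to 605 over the leave-one-out values, and turned positive without primordial replicate 2 (605) and without primary replicate 2 (107). The causes were not tested. No named gene changed sign over the alternatives, and the 48 of 583 values past the threshold came from DESeq2 and voom. List medians kept their sign for the maternal store, germline, meiotic, granulosa, proliferation and ribosomal lists in every alternative run. They changed it in 1 for the zona list, in 1 for KIT and PI3K and for contact, in 2 for basement membrane, in 3 for TGF-beta and for mitochondrially encoded genes, in 5 for NRF2 and for stroma, and in 7 for glycolysis. The dispersion of 3.59 with 3 libraries a stage limits what could be detected.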
